A study of Homo sapiens with 47 samples.

Results

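The miR-106b, miR-93 and miR-25 hairpins lie side by side in an intron of MCM7, and the microRNA (miRNA) count table holds both arms of each. The 6 mature arms, hsa-miR-106b-5p, hsa-miR-106b-3p, hsa-miR-93-5p, hsa-miR-93-3p, hsa-miR-25-3p and hsa-miR-25-5p, were chosen by name and make up 6 of the 1006 entries of the table. All 6 passed the filter on low counts in both cell lines. Small RNA was sequenced from prostate cancer lines exposed for 24 h, in a hypoxia chamber, to 0% O2, to 0.2, 0.5 or 1% O2, or to 2 or 5% O2, and from normoxia controls (95% air) that belong to each of these levels. PC-3, which comes from a bone metastasis, gave 12 hypoxia and 12 normoxia libraries, 2 of each per level. 22Rv1, which comes from a subline of the CWR22R xenograft, gave 12 hypoxia and 11 normoxia libraries, again 2 per group except the normoxia control of the 0.2% level, for which 1 library was analysed. Every test takes the spread of that lone control to be that of the other groups. The cells carried no engineered change, and both lines were grown in RPMI-1640 with serum. The labels do not say whether duplicates are separate cultures, and p-values thus reflect only how far these libraries differ, which may be technical.

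A primary miRNA hairpin is cut into a duplex of a 5p and a 3p arm, and the arm that Argonaute keeps, the guide, pairs with target mRNAs mainly through its seed, while the other, the passenger, is mostly degraded. MCM7 encodes a subunit of the replicative DNA helicase and is transcribed under E2F control, and the miRNAs in its intron are best known for holding back the cell cycle inhibitor p21 (CDKN1A) and the pro-apoptotic protein BIM (BCL2L11). The cluster is a paralogue of the miR-17 to miR-92a cluster and of the miR-106a to miR-363 cluster, and it has been described as raised in prostate tumours.

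The mature sequences are shown because the seed divides the cluster into the families that the later comparisons with paralogues use. They are the RefSeq sequences on GRCh38.p14, written 5′ to 3′ with the seed, bases 2 to 8, in capitals.
hsa-miR-106b-5p: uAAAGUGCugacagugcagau
hsa-miR-93-5p: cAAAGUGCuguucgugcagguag
hsa-miR-17-5p: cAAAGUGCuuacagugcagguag
hsa-miR-20a-5p: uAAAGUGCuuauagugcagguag
hsa-miR-25-3p: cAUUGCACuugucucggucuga
hsa-miR-92a-3p: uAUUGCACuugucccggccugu
hsa-miR-106b-3p: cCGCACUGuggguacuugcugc
hsa-miR-93-3p: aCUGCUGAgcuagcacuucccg
hsa-miR-25-5p: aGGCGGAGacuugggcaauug
The seed AAAGUGC of miR-106b-5p and miR-93-5p stands in 8 of 2370 mature human names of the RefSeq table, and the seed AUUGCAC of miR-25-3p in 6. Each of the other 3 arms has a seed that no other listed name carries. Set base by base from the 5′ end, miR-106b-5p shares 18 of 21 bases with miR-17-5p, miR-93-5p shares 19 of 23 with miR-20a-5p, and miR-25-3p shares 18 of 22 with miR-92a-3p. The nearest other mature name to miR-93-5p, miR-17-5p, is 3 edits away, that to miR-25-3p, miR-92a-3p, is 4 away and that to miR-106b-5p, miR-106a-5p, is 5 away. How the authors assigned reads that match closely related arms is not given in the sources used here, so the counts of these 3 arms carry that uncertainty. The other 3 arms lie 7 or 8 edits from any other name.

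On GRCh38, MCM7 runs on the minus strand over chr7:100092728-100101940, and the order of transcription is MIR106B, MIR93, MIR25. In the GENCODE v29 annotation, each of the 3 hairpins lies in an intron of all 4 coding MCM7 transcripts that span it, which is intron 13 of the 15-exon transcript MCM7-201 at chr7:100093402-100094172. The MIR93 hairpin covers chr7:100093768-100093847. The hairpins of miR-106b and miR-25 are shown with both arms in capitals, since in the data they stand for a hairpin with balanced arms and a hairpin with a scarce 5p arm. MIR106B covers chr7:100093993-100094074 on the minus strand, and MIR25 covers chr7:100093560-100093643 on the same strand.
MIR106B: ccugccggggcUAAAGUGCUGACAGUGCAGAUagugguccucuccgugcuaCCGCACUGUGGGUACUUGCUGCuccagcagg
MIR25: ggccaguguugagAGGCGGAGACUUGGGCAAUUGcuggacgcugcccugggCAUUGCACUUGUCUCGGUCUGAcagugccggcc
Within the MIR25 hairpin, miR-25-5p covers chr7:100093610-100093630 and miR-25-3p covers chr7:100093571-100093592.

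Library totals ran from 1742290 to 4327382 counts in PC-3 and from 960421 to 3181344 in 22Rv1, and the 6 arms gave 14872 to 40077 and 20761 to 98021 counts of them. The check of the hypoxia labels held as a mean over the 6 O2 levels. Over these levels miR-210-3p, a direct target of the hypoxia-inducible factor, averaged 932 ± 96.9 CPM in hypoxia and 575 ± 75.4 CPM in normoxia in PC-3 (CPM are counts scaled to a common library total after TMM normalisation, and errors are SD). In 22Rv1 it averaged 2747 ± 454 CPM in hypoxia and 1347 ± 166 CPM in normoxia. The edgeR adjusted p-values of these rises were 1.05e-07 and 2.80e-09. At 5% O2 alone the check gave no call, since 0 of 463 entries in PC-3 and 0 of 552 in 22Rv1 were called there. Epithelial markers of the miR-200 family were taken as a sum over 5 entries, and single markers were not looked at. The sum was 6783 to 8008 CPM in hypoxia and 6806 to 8074 CPM in normoxia for PC-3. For 22Rv1 it was 29005 to 64953 CPM in hypoxia and 28296 to 67074 CPM in normoxia. On the first principal component, 5 libraries stood apart, namely replicate 1 of hypoxia and of control at 5% O2 in each line and the 22Rv1 hypoxia library 1 at 0.5% O2. Both such PC-3 libraries also held the sum of the 6 smooth muscle or stromal markers at 1202 CPM in hypoxia and 1275 CPM in normoxia, with all other PC-3 libraries at or below 40.2 CPM, and the part of this in the results was not tested. In bulk libraries, fewer cells of a type and less RNA per cell cannot be told apart.

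The cluster was an abundant one in both lines, and miR-25-3p and miR-93-5p made up most of it. In PC-3 the 6 arms together took 0.902 ± 0.0521% of a library in hypoxia and 0.967 ± 0.0398% in normoxia (SD, n = 12 each). In 22Rv1 they took 2.68 ± 0.215% in hypoxia and 2.93 ± 0.285% in normoxia (SD, n = 12 and 11). Of the cluster's counts in normoxia, miR-25-3p gave 57.4% in PC-3 and 62.3% in 22Rv1, and miR-93-5p gave 33.2% in PC-3 and 30.3% in 22Rv1. The arms miR-106b-5p and miR-106b-3p followed with 4.25% and 3.50% in PC-3, and with 2.25% and 3.98% in 22Rv1, so that their order was reversed between the lines. The passenger arms miR-25-5p and miR-93-3p were the scarcest, at 0.921% and 0.715% in PC-3 and at 0.823% and 0.381% in 22Rv1. Among all 1006 entries ranked by their normoxia level, miR-25-3p stood at place 36 in PC-3 and 14 in 22Rv1, miR-93-5p at 45 in PC-3 and 25 in 22Rv1, and miR-93-3p at 204 in PC-3 and 178 in 22Rv1. One read stands for one mature miRNA of nearly constant length, so these levels need no length scaling, although ligation efficiency is known to differ between small RNA sequences.

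**Figure D1:**
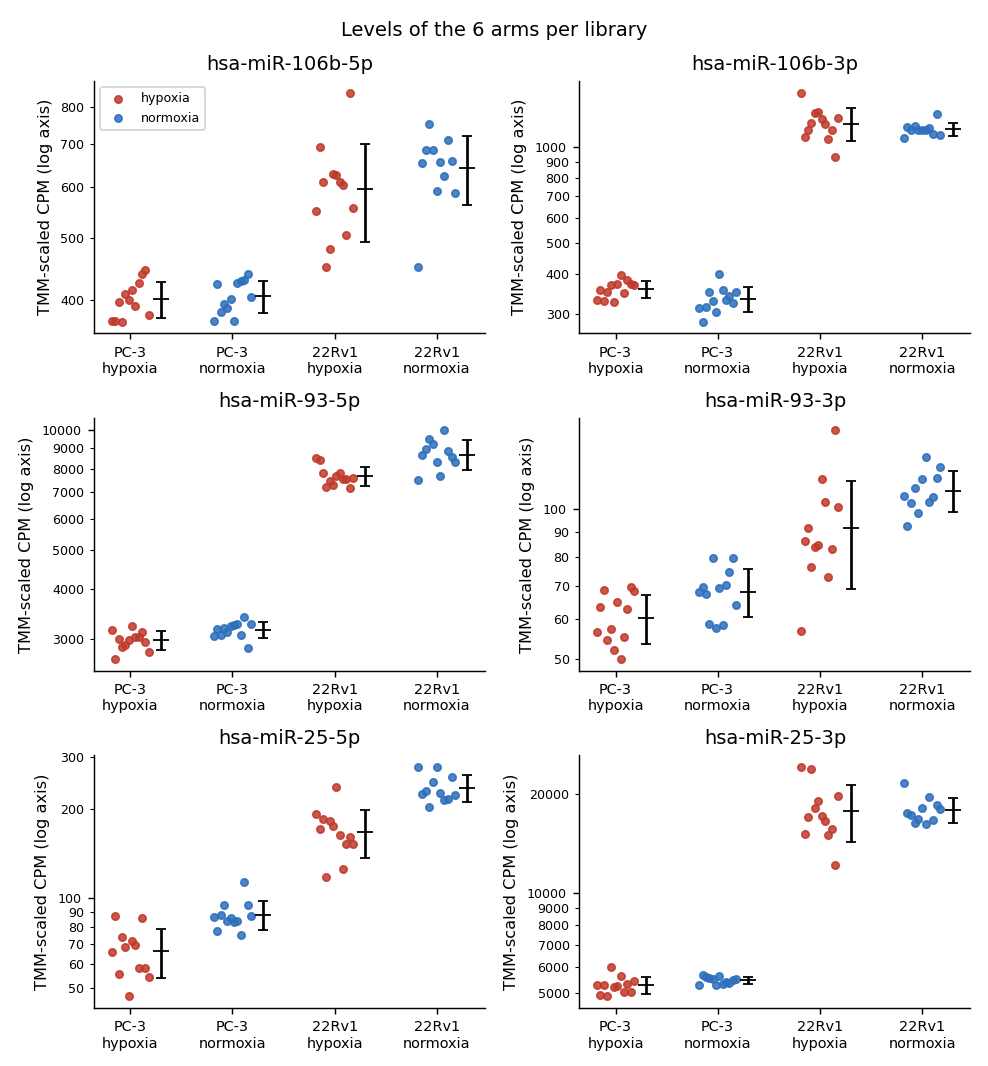
TMM-scaled CPM of the 6 arms in each library (points, log axes that differ between panels) in hypoxia and normoxia of each line, with the mean and SD as bars. In the miR-25-5p panel 10 of 12 PC-3 and 11 of 12 22Rv1 hypoxia libraries lie below every normoxia library of their line, while the groups overlap widely for miR-106b-5p and miR-106b-3p.

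In normoxia, all 6 arms were lower in PC-3 than in 22Rv1, by more than 2 times for miR-106b-3p, miR-93-5p and miR-25-3p and by far less for miR-106b-5p and miR-93-3p. On a TMM scale common to both lines, miR-25-3p averaged 6346 ± 180 CPM in PC-3 and 15260 ± 1306 CPM in 22Rv1 (SD, n = 12 and 11), a log2 difference of -1.26 (edgeR adjusted p = 6.19e-18). miR-93-5p averaged 3674 ± 154 CPM in PC-3 and 7420 ± 762 CPM in 22Rv1, a log2 difference of -1.02 (edgeR adjusted p = 3.63e-19). miR-106b-3p averaged 388 ± 35.7 CPM in PC-3 and 973 ± 64.0 CPM in 22Rv1, a log2 difference of -1.33 (edgeR adjusted p = 2.33e-20). The scarce arm miR-25-5p kept step with these, with 102 ± 11.4 CPM in PC-3 and 201 ± 21.1 CPM in 22Rv1 and a log2 difference of -0.997 (edgeR adjusted p = 2.58e-14). The other arms of miR-106b and miR-93 differed little between the lines: miR-106b-5p averaged 470 ± 27.2 CPM in PC-3 and 549 ± 81.3 CPM in 22Rv1, and miR-93-3p averaged 79.1 ± 9.01 CPM in PC-3 and 92.8 ± 6.77 CPM in 22Rv1, each a log2 difference of -0.23 (edgeR adjusted p = 0.00569 and 0.0219). The calls of these last 2 arms were lost with the authors' scaling factors, at adjusted p = 0.0515 and 0.131, and with no filter on low counts, at 0.184 and 0.292. Differences between the lines were the rule in this table, since 86% of 613 tested entries were called in either direction and 46.3% were called lower in PC-3, and the median log2 difference of all entries was -0.15. With library size alone as the scaling, that median moved by -0.46, so the sizes above hold relative to the TMM scale.

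Under hypoxia, averaged over the 6 O2 levels, miR-25-5p, the passenger arm of miR-25, fell in both lines. In the main fit, which does not use same-numbered pairs, none of the other 5 arms was called in either line. With these pairs as a block, both arms of miR-93 were called lower in both lines. The block also called miR-106b-3p higher in PC-3 and miR-106b-5p lower in 22Rv1, beside 23.5% of all entries in PC-3 and 29.7% in 22Rv1. In PC-3, miR-25-5p had 46.7, 67.1 and 86.8 CPM (lowest, median and highest of 12) in hypoxia, and 75.2, 86.1 and 113 CPM in normoxia. The PC-3 groups overlapped, but 10 of 12 hypoxia libraries lay below every control. Its mean effect was a log2 of -0.42 (SE 0.065), 0.748 times the control level, with an edgeR adjusted p of 7.01e-05, and 11 of 12 same-level pairs were lower in hypoxia. In 22Rv1 it had 118, 167 and 236 CPM (lowest, median and highest of 12) in hypoxia, and 203, 226 and 277 CPM in normoxia (of 11). Here 11 of 12 hypoxia libraries lay below every control. The 22Rv1 mean effect was a log2 of -0.50 (SE 0.086), 0.705 times the control level, with an edgeR adjusted p of 3.07e-04, and 10 of 11 pairs were lower in hypoxia. As background, 11% of 463 tested entries were called in PC-3 and 5.18% were called lower, and 13.6% of 552 were called in 22Rv1 and 5.98% were called lower. With library size alone, the 27 higher and 24 lower calls of PC-3 became 22 and 44, and the 42 higher and 33 lower calls of 22Rv1 became 20 and 26. By p-value, miR-25-5p held place 10 in PC-3 and place 14 in 22Rv1. In PC-3 the summed level of the 4 entries that overlap other RNA classes, kept as a sign of RNA quality, was 313, 422 and 533 CPM (lowest, median and highest) in hypoxia and 433, 494 and 558 CPM in normoxia, while in 22Rv1 it was 224, 287 and 384 CPM in hypoxia and 221, 259 and 328 CPM in normoxia. The part of this sum in the fall of miR-25-5p was not tested. Without the libraries that stood apart, its log2 effect was -0.41 in PC-3 (edgeR adjusted p = 7.61e-04) and -0.43 in 22Rv1 (edgeR adjusted p = 0.00213).

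The other arm of the same hairpin, the guide miR-25-3p, showed no called change. In PC-3 it had 4887, 5257 and 5995 CPM (lowest, median and highest) in hypoxia, and 5299, 5490 and 5676 CPM in normoxia, a log2 effect of -0.05 (SE 0.039, edgeR adjusted p = 0.455), with 10 of 12 pairs lower and 8 of 12 hypoxia libraries below every control. In 22Rv1 it had 12189, 17101 and 24127 CPM in hypoxia, and 16250, 17443 and 21582 CPM in normoxia, a log2 effect of -0.01 (SE 0.094, edgeR adjusted p = 0.968), with 5 of 11 pairs lower. The groups overlapped in both lines, and the 22Rv1 hypoxia libraries spread on both sides of the controls.

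Level by level, miR-25-5p was lower in hypoxia at all 6 levels in both lines, and the call was reached at 0% O2 in PC-3 and at 0.5% O2 in 22Rv1. In PC-3 at 0% O2 it had 46.7 and 54.1 CPM in hypoxia, against 85.9 and 87.0 CPM in normoxia, a log2 effect of -0.78 (SE 0.159, edgeR adjusted p = 0.0241), which was the smallest p of that level. At 0.2% O2 it had 68.3 and 58.1 CPM in hypoxia, against 83.6 and 95.2 CPM in normoxia (log2 -0.50). At 0.5% O2 it had 74.0 and 85.6 CPM in hypoxia, against 94.7 and 113 CPM in normoxia (log2 -0.38). At each of these levels both hypoxia libraries lay below both controls. At 1% O2 it had 55.3 and 58.3 CPM in hypoxia, against 87.8 and 75.2 CPM in normoxia (log2 -0.52). At 2% O2 it had 86.8 and 69.7 CPM in hypoxia, against 77.7 and 83.6 CPM in normoxia (log2 -0.05). At 5% O2 it had 65.9 and 71.7 CPM in hypoxia, against 86.2 and 82.9 CPM in normoxia (log2 -0.30). The groups thus overlapped at 2% O2 and at no other level of PC-3. Groups of 2 libraries separate easily, and how often other entries did so was not counted. The call at 0% O2 was lost without hypoxia library 1 (adjusted p = 0.214) or either control library of that level (0.0856 and 0.0845). In the fit with same-numbered pairs as a block, edgeR also called the effects at 0.2% (adjusted p = 0.0360) and 1% O2 (adjusted p = 0.0457), where the block called 6.7% and 3.24% of all entries. Without the block, the share of all PC-3 entries called, from the lowest O2 level to the highest, was 2.81, 1.51, 0.864, 0.648, 0.648 and 0%.

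In 22Rv1 at 0% O2, miR-25-5p had 175 and 152 CPM in hypoxia, against 277 and 222 CPM in normoxia (log2 -0.61, edgeR adjusted p = 0.105). At 0.2% O2 it had 182 and 161 CPM in hypoxia, against 247 CPM in the lone control (log2 -0.53). At 0.5% O2 it had 118 and 153 CPM in hypoxia, against 203 and 255 CPM in normoxia, a log2 effect of -0.76 (SE 0.205, edgeR adjusted p = 0.0441). All of these hypoxia libraries lay below their controls. At 1% O2 it had 185 and 126 CPM in hypoxia, against 230 and 216 CPM in normoxia (log2 -0.52). At 2% O2 it had 171 and 163 CPM in hypoxia, against 224 and 215 CPM in normoxia (log2 -0.39). At 5% O2 it had 193 and 236 CPM in hypoxia, against 276 and 226 CPM in normoxia (log2 -0.21). The groups overlapped at 5% O2 only, and here too the share of all entries that separated by level was not counted. The call at 0.5% O2 stood near the threshold, and 17 of 23 omissions of a single library lost it, with adjusted p between 0.0523 and 0.612. It was also lost with DESeq2 size factors (edgeR adjusted p = 0.0536) and without the 3 libraries that stood apart (adjusted p = 0.279), of which hypoxia library 1 of this level is a member. With same-numbered pairs as a block, edgeR also called the effects at 0% (adjusted p = 0.0108) and 1% O2 (adjusted p = 0.0477), where the block called 9.24% and 4.35% of all entries. Without the block, the share of all 22Rv1 entries called, in the same order of levels, was 4.71, 0.906, 3.08, 0.725, 0.362 and 0%.

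**Figure D2:**
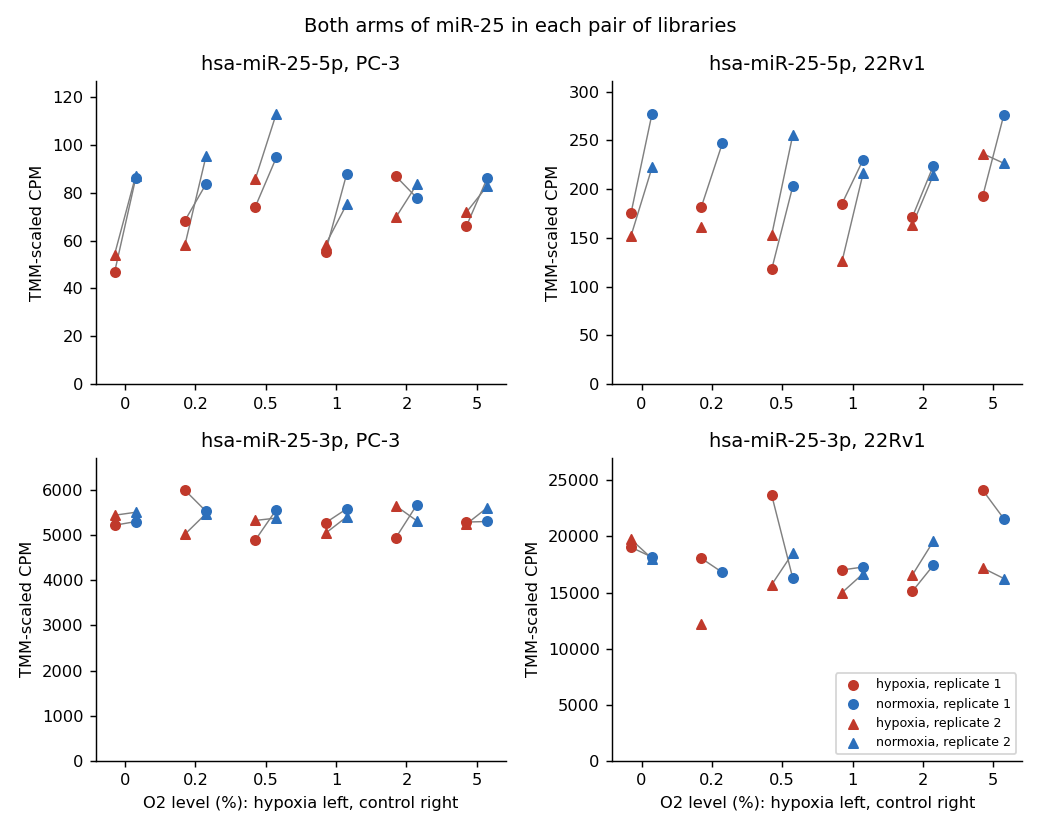
TMM-scaled CPM of miR-25-5p (top) and miR-25-3p (bottom) in each library by O2 level, hypoxia on the left and its own control on the right, with lines joining the libraries of the same replicate number. Nearly all lines slope up to the control for miR-25-5p (11 of 12 pairs in PC-3 and 10 of 11 in 22Rv1), while for miR-25-3p 10 of 12 pairs are lower in PC-3, by smaller amounts, and 5 of 11 in 22Rv1.

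Whether the size of the effect depends on the O2 level was tested directly, and no arm of the cluster was called. The effect of miR-25-5p in PC-3 changed by a log2 of -0.10 per step toward lower O2, with an unadjusted p of 0.0123 and an edgeR adjusted p of 0.569, and it was the only arm in either line with an unadjusted p below 0.05 for this trend. The trend called 0.216% of entries in PC-3 and 0.181% in 22Rv1. The test for any difference among the 6 levels called 0 of 6 arms in each line, with 0 of 6 at an unadjusted p below 0.05 in edgeR, and it called 0% of all entries in PC-3 and 0.362% in 22Rv1. The normoxia controls of the 6 levels, compared with each other in the same way, called 0 of 6 arms, again with 0 of 6 at an unadjusted p below 0.05, and 0% of all entries in each line. These 3 tests were run in edgeR alone.

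The arms of miR-93 were lower in hypoxia in most pairs. Their call depended on whether the pairs were used, and for miR-93-5p also on the scaling and on which libraries were kept. The guide miR-93-5p had 2673, 2986 and 3231 CPM (lowest, median and highest) in hypoxia and 2853, 3182 and 3407 CPM in normoxia in PC-3, a log2 effect of -0.09 (SE 0.037, edgeR adjusted p = 0.136), with 10 of 12 pairs lower. In 22Rv1 it had 7143, 7573 and 8521 CPM in hypoxia and 7482, 8628 and 10012 CPM in normoxia, a log2 effect of -0.18 (SE 0.063, edgeR adjusted p = 0.0554), with 9 of 11 pairs lower. The groups overlapped in both lines, with 2 of 12 hypoxia libraries of PC-3 and 4 of 12 of 22Rv1 below every control. With same-numbered pairs as a block, miR-93-5p was called lower in PC-3 (log2 -0.09, adjusted p = 0.0375) and in 22Rv1 (log2 -0.18, adjusted p = 0.0254). The block called 23.5% of all entries in PC-3 and 29.7% in 22Rv1. Without the 3 libraries that stood apart, its 22Rv1 effect was called too (log2 -0.20, adjusted p = 0.0305), with 13.6% of 545 entries called. Both hypoxia libraries lay below their controls at 4 of 6 levels in PC-3 and at 5 of 6 in 22Rv1. The exception in 22Rv1 was 5% O2, where miR-93-5p had 8521 and 7690 CPM in hypoxia, against 7482 and 7666 CPM in normoxia. Groups this small separate easily, and the share of all entries that separated in this way was not counted, so no conclusion is drawn from it.

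The passenger arm miR-93-3p had 49.9, 60.0 and 69.7 CPM (lowest, median and highest) in hypoxia and 57.7, 68.6 and 79.7 CPM in normoxia in PC-3, a log2 effect of -0.18 (SE 0.074, edgeR adjusted p = 0.1433), with 10 of 12 pairs lower. In 22Rv1 it had 56.7, 85.5 and 144.3 CPM in hypoxia and 92.6, 105.9 and 127 CPM in normoxia, a log2 effect of -0.24 (SE 0.108, edgeR adjusted p = 0.165), with 11 of 11 pairs lower. The 22Rv1 hypoxia libraries ranged wider than the controls on both sides, and the highest, 144.3 CPM, was the unpaired library 2 at 0.2% O2. In the fit with pairs as a block, which cannot use that library, miR-93-3p was called lower in PC-3 (log2 -0.17, adjusted p = 0.0305) and in 22Rv1 (log2 -0.31, adjusted p = 0.00285).

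The arms of miR-106b showed no call in hypoxia without the block, and their mean effects had opposite signs. The effects of miR-106b-5p in PC-3 and of miR-106b-3p in 22Rv1 were smaller than their SE. For miR-106b-5p, 7 of 12 pairs were lower in PC-3 and 8 of 11 in 22Rv1. miR-106b-5p had 369, 398 and 446 CPM (lowest, median and highest) in hypoxia and 371, 402 and 439 CPM in normoxia in PC-3, a log2 effect of -0.01 (SE 0.047, edgeR adjusted p = 0.933). In 22Rv1 it had 449, 607 and 842 CPM in hypoxia and 450, 656 and 751 CPM in normoxia, a log2 effect of -0.12 (SE 0.089, edgeR adjusted p = 0.446), and the block gave -0.19 (adjusted p = 0.0237). In both lines the groups covered nearly the same range. The partner arm miR-106b-3p had 328, 364 and 397 CPM in hypoxia and 283, 330 and 401 CPM in normoxia in PC-3, a log2 effect of 0.11 (SE 0.054, edgeR adjusted p = 0.227), with 11 of 12 pairs higher. The block called that rise (log2 0.11, adjusted p = 0.0377). In 22Rv1, miR-106b-3p had 930, 1186 and 1480 CPM in hypoxia and 1066, 1130 and 1267 CPM in normoxia, a log2 effect of 0.05 (SE 0.067, edgeR adjusted p = 0.690), with 8 of 11 pairs higher. The hypoxia libraries of 22Rv1 again spread to both sides of the controls.

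**Figure D3:**
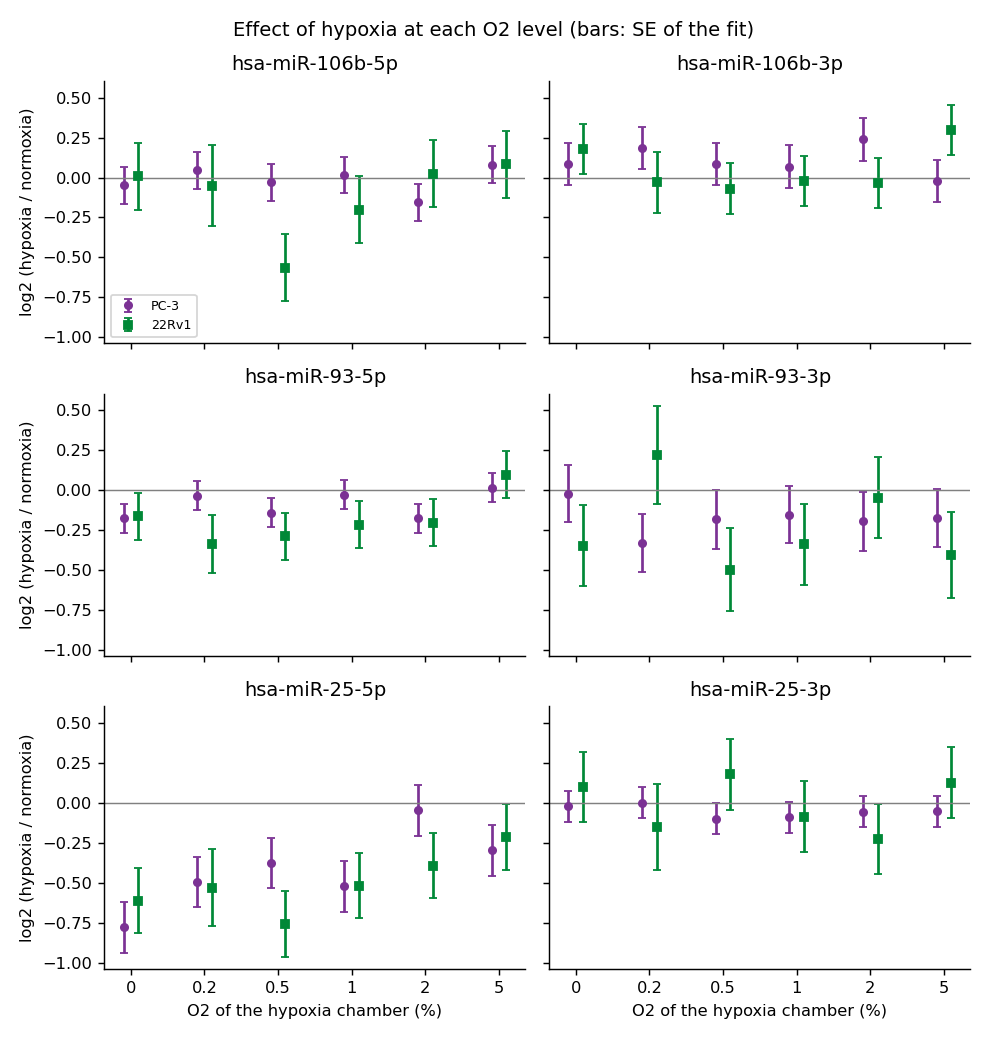
Log2 effect of hypoxia over its own normoxia control for each arm at each O2 level in PC-3 and 22Rv1, with the SE of the fit as bars. Every miR-25-5p point lies below 0, between -0.78 and -0.05 in PC-3 and between -0.76 and -0.21 in 22Rv1, while the miR-25-3p points lie between -0.10 and 0.002 in PC-3 and between -0.23 and 0.18 in 22Rv1.

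Outside miR-25-5p, no arm was called at any single level without the block, and the widest effects were those of 22Rv1 at 0.5% O2. There, miR-106b-5p had 449 and 504 CPM in hypoxia, against 751 and 659 CPM in normoxia, a log2 effect of -0.56 (edgeR adjusted p = 0.150). At the same level miR-93-3p had 76.5 and 83.1 CPM in hypoxia, against 110 and 115 CPM in normoxia, a log2 effect of -0.50. With pairs as a block, both effects were called, with edgeR adjusted p of 0.00742 and 0.0412, as were 19.4% of all entries. Hypoxia library 1 of this level is one of those that stood apart, and its sum of the smooth muscle or stromal markers was 643 CPM, against 59.1 to 215 CPM in the other 22Rv1 hypoxia libraries and 140 to 304 CPM in the controls. The part of this in the result was not tested.

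The response did not differ detectably between the lines. The effect in PC-3 minus that in 22Rv1 was a log2 of 0.08 for miR-106b-5p, 0.03 for miR-106b-3p, 0.07 for miR-93-5p, 0.04 for miR-93-3p, -0.06 for miR-25-3p and 0.07 for miR-25-5p. Of the 6 arms, 0 were called and 0 had an unadjusted p below 0.05 in edgeR, and DESeq2 called 0, against 2.94% of all 613 entries called in edgeR.

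The ratio of the arms within a library does not depend on library scaling, and that of hsa-mir-25 fell in both lines. Whether it fell by more than the ratio of hsa-mir-106b was not tested. For hsa-mir-25 in PC-3, the 5p arm made up 0.888, 1.18 and 1.73% (lowest, median and highest) of the reads of both arms in hypoxia, and 1.35, 1.55 and 2.06% in normoxia. The log2 ratio of 5p over 3p fell by 0.37 (SE 0.067, limma adjusted p = 4.47e-04), with 11 of 12 pairs lower and 9 of 12 hypoxia libraries below every control. In 22Rv1 the 5p arm made up 0.494, 0.969 and 1.36% in hypoxia, and 1.08, 1.28 and 1.51% in normoxia. There the log2 ratio fell by 0.49 (SE 0.131, limma adjusted p = 0.0316), with 11 of 11 pairs lower and 9 of 12 hypoxia libraries below every control. hsa-mir-25 held place 7 by p-value among the tested hairpins in both lines, of which 12.8% were called in PC-3 and 9.93% in 22Rv1. A fall of this kind was not particular to hsa-mir-25. The paralogue hairpin hsa-mir-92a-1, singled out after its values were seen, changed by a log2 of -0.58 in PC-3 (limma adjusted p = 1.49e-04). In 22Rv1 it changed by -0.46, which was not called (limma adjusted p = 0.0957). The 3p arm of that ratio, miR-92a-3p, has the same sequence from MIR92A1 and MIR92A2, so the ratio may not be that of a single hairpin. Without the libraries that stood apart, the log2 ratio change of hsa-mir-25 was -0.34 in PC-3 (limma adjusted p = 0.00383) and -0.36 in 22Rv1 (limma adjusted p = 0.0364). The 22Rv1 call was lost in 11 of 22 omissions of a single library, which gave changes from -0.57 to -0.41 and adjusted p from 0.00431 to 0.0697. These omissions were both hypoxia libraries at 2% O2, hypoxia library 2 at 0% and at 1% O2, control library 1 at 2% O2, and both control libraries at 0%, 0.5% and 1% O2.

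The other hairpins showed no called change of arm balance without the block. For hsa-mir-106b in PC-3 the 5p share was 52.7 ± 1.81% in hypoxia and 54.8 ± 2.91% in normoxia (SD, n = 12 each), a log2 ratio change of -0.12 (limma adjusted p = 0.210), although 11 of 12 pairs were lower. In 22Rv1 it was 33.5 ± 5.80% in hypoxia and 35.9 ± 2.73% in normoxia, a change of -0.17 (limma adjusted p = 0.520), with 10 of 11 pairs lower, and pairs as a block gave a called change of -0.28 (limma adjusted p = 0.0413), with 19.1% of hairpins called. For hsa-mir-93, the 5p share was 98.0 ± 0.262% in hypoxia and 97.9 ± 0.288% in normoxia in PC-3, and 98.8 ± 0.321% in hypoxia and 98.7 ± 0.194% in normoxia in 22Rv1, with limma adjusted p of 0.547 and 0.833. The change in arm ratio in PC-3 minus that in 22Rv1 was a log2 of 0.05, 0.003 and 0.13 for miR-106b, miR-93 and miR-25, and limma called 0 of the 3 hairpins and found 0 of 3 at an unadjusted p below 0.05, against 1.92% of 156 hairpins called.

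**Figure D4:**
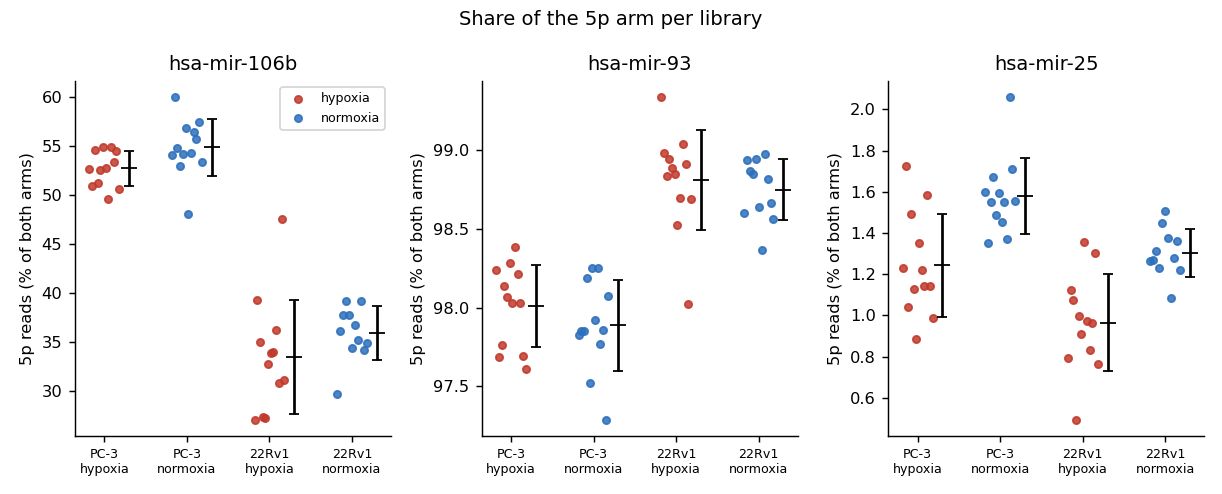
Share of the 5p arm among the reads of both arms of each hairpin in each library (points, % on axes that differ between panels and do not start at 0), with the mean and SD as bars. The 5p share of hsa-mir-25 is lower in hypoxia in both lines, and that of hsa-mir-106b is above 48% in all PC-3 libraries and below it in all 22Rv1 libraries.

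The lines themselves used the arms of miR-106b differently. In normoxia the 5p share of hsa-mir-106b was 54.8% in PC-3 and 35.9% in 22Rv1, a log2 ratio difference of 1.11 (SE 0.105, limma adjusted p = 6.77e-10), and the lowest PC-3 share, 48.0%, lay above the highest 22Rv1 control share, 39.2%. The log2 ratio of hsa-mir-93 was lower in PC-3 by 0.79 (log2 difference -0.79, limma adjusted p = 9.22e-07), with 5p shares of 97.9% in PC-3 and 98.7% in 22Rv1. That of hsa-mir-25 was 0.27 higher in PC-3 (limma adjusted p = 0.0287), with 5p shares of 1.58% in PC-3 and 1.30% in 22Rv1, and this call was lost in 7 omissions of a single library, with adjusted p of up to 0.0584. Of 156 hairpins, 58.3% were called in this comparison.

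Against the arms of the miR-17 to miR-92a cluster that share their seeds, the responses of the cluster's guides differed by small amounts. Of these arms, miR-92a-3p has the same sequence from MIR92A1 on chromosome 13 and from MIR92A2 on chromosome X. Its counts thus cannot be assigned to a single locus. In each library the log2 ratio of a cluster arm to its paralogue arm was taken, and its change under hypoxia was tested by exact permutation of the labels within each O2 level, two-sided, with p-values adjusted over the 6 comparisons. In PC-3, the log2 ratio of miR-93-5p to miR-20a-5p averaged 0.99 ± 0.094 in hypoxia and 0.85 ± 0.13 in normoxia (SD), a rise of 0.14 (exact adjusted p = 0.0167) with 2 of 12 pairs lower. In 22Rv1 the same ratio averaged 2.06 ± 0.088 in hypoxia and 1.92 ± 0.12 in normoxia, a rise of 0.13 (exact adjusted p = 0.0175) with 2 of 11 pairs lower. In both lines, then, miR-20a-5p was lower in hypoxia by more than miR-93-5p was. The log2 ratio of miR-106b-5p to miR-17-5p rose by 0.10 in PC-3 (exact adjusted p = 0.0175), with 1 of 12 pairs lower, and changed by 0.04 in 22Rv1 (exact adjusted p = 0.643). The log2 ratio of miR-25-3p to miR-92a-3p changed by -0.03 in PC-3 (exact adjusted p = 0.456) and by -0.09 in 22Rv1 (exact adjusted p = 0.0315), with 7 of 11 pairs lower. The 22Rv1 call was lost when signs were flipped over pairs (exact adjusted p = 0.0586), without hypoxia library 1 at 0% O2 (0.0786) and without control library 2 at 0% O2 (0.0748).

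The whole paralogue list, both arms of the miR-17, miR-18a, miR-18b, miR-19a, miR-19b, miR-20a, miR-20b, miR-92a, miR-106a and miR-363 hairpins, holds 20 entries of the table. In PC-3, 13 were tested, of which 0 rose and 2 fell, with a median log2 effect of -0.10 beside -0.004 for all entries. The share of all PC-3 entries called lower was 5.18%. The 2 that fell were miR-92a-1-5p, the passenger arm of miR-92a-1, with 22.6 ± 6.45 CPM in hypoxia and 33.5 ± 4.78 CPM in normoxia (log2 -0.60, edgeR adjusted p = 7.0e-05), and miR-20a-5p, with 1506 ± 143.5 CPM in hypoxia and 1769 ± 168 CPM in normoxia (log2 -0.23, edgeR adjusted p = 3.93e-04). Beside miR-17-5p, given below, the next by p was miR-19b-1-5p, which was not called and had 3.15 ± 1.19 CPM in hypoxia and 4.89 ± 1.37 CPM in normoxia (log2 -0.62, edgeR adjusted p = 0.0724). In 22Rv1, 15 were tested, of which 2 rose and 3 fell, with a median log2 effect of -0.08 beside 0.01 for all entries, of which 13.6% were called and 5.98% were called lower. miR-20a-5p fell there as well, to 1845 ± 173 CPM in hypoxia against 2300 ± 298 CPM in normoxia (log2 -0.32, edgeR adjusted p = 0.00253). So did miR-20b-5p, to 129 ± 14.3 CPM in hypoxia against 167 ± 32.6 CPM in normoxia (log2 -0.37, edgeR adjusted p = 0.00679), and miR-92a-1-5p, singled out after its values were seen, to 23.1 ± 5.61 CPM in hypoxia against 29.9 ± 4.03 CPM in normoxia (log2 -0.38, edgeR adjusted p = 0.0457). The 2 that rose, miR-19a-3p and miR-19b-3p, carry a different seed, and had 404 ± 79.1 and 1102 ± 192 CPM in hypoxia, against 309 ± 39.0 and 904 ± 84.9 CPM in normoxia (log2 0.38 and 0.28, edgeR adjusted p = 0.0102 and 0.0365). Of the partners in the ratio tests, miR-20a-5p was called as given above and the other two were not: miR-17-5p had a log2 effect of -0.11 in PC-3 (edgeR adjusted p = 0.0514) and -0.17 in 22Rv1 (0.106), and miR-92a-3p had -0.02 in PC-3 (0.790) and 0.08 in 22Rv1 (0.692).

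Of the seed relatives outside these clusters, 4 arms were in the table and tested, both arms of miR-32 and of miR-92b. In PC-3 edgeR called 0 of 4. Of all entries, 11% were called in PC-3 and 13.6% in 22Rv1, where 5.98% were called lower. In 22Rv1 the arms miR-32-3p and miR-92b-5p fell, miR-32-3p with 32.4 ± 5.91 CPM in hypoxia and 45.3 ± 7.05 CPM in normoxia (log2 -0.47, edgeR adjusted p = 0.0112), and miR-92b-5p with 159 ± 21.5 CPM in hypoxia and 188 ± 23.2 CPM in normoxia (log2 -0.25, edgeR adjusted p = 0.0392). In PC-3 these had log2 effects of -0.26 (adjusted p = 0.0634) and 0.05 (adjusted p = 0.817). The arms with the AUUGCAC seed of miR-25-3p, miR-32-5p and miR-92b-3p, were not called. miR-32-5p had log2 effects of 0.09 in PC-3 (edgeR adjusted p = 0.664) and 0.12 in 22Rv1 (edgeR adjusted p = 0.591), and miR-92b-3p had log2 effects of 0.03 in PC-3 (edgeR adjusted p = 0.773) and -0.07 in 22Rv1 (edgeR adjusted p = 0.793).

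**Figure D5:**
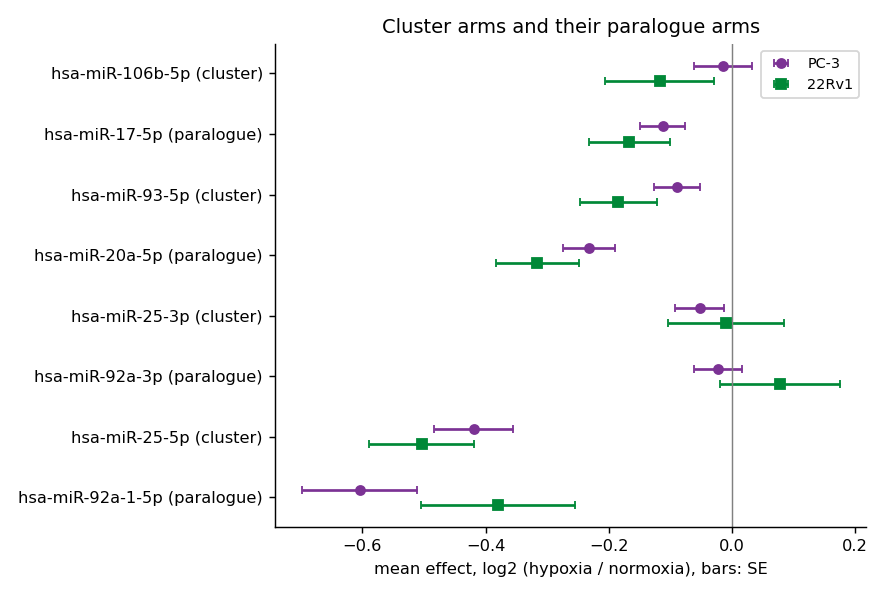
Mean log2 effect of hypoxia over normoxia for 4 cluster arms and 4 paralogue arms in PC-3 and 22Rv1, with the SE of the fit as bars. miR-25-5p (-0.42 in PC-3 and -0.50 in 22Rv1) and miR-92a-1-5p (-0.60 in PC-3 and -0.38 in 22Rv1) lie lowest among these 8 arms, and the guides miR-25-3p and miR-92a-3p lie near 0.

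Although the 3 hairpins share a host gene, on the TMM scale no positive relation among the 12 tested between arms passed, and this turned with the scaling. Correlations were taken of log2(CPM + 1) over 24 PC-3 or 23 22Rv1 libraries, which share scaling and depth effects, with permutation p-values from 100000 resamples adjusted over 12 relations. In each line these were the 3 pairs among miR-106b-5p, miR-93-5p and miR-25-3p and the 3 pairs of arms of the same hairpin. In PC-3, miR-93-5p and miR-25-3p had Pearson r = 0.29 and Spearman rho = 0.27, with permutation adjusted p of 0.511 and 0.629, and none of the 6 relations passed, with r from -0.03 to 0.29. In 22Rv1, 1 of 6 passed by Pearson r: miR-106b-5p and miR-25-3p ran in opposite directions, with r = -0.68 (permutation adjusted p = 0.00348) and rho = -0.56 (permutation adjusted p = 0.0680), and with r = -0.54 without the 2 libraries farthest from the median of miR-106b-5p. Without the 3 libraries that stood apart, r was -0.51 (permutation adjusted p = 0.155). With deviations from the group means, over 22 libraries, it was -0.82, or -0.77 without the 2 farthest libraries. In a group of 2 libraries these deviations mirror each other and are not independent, so no p-value is given for them. With library size alone, r of this relation was 0.12, and 3 of 6 relations in each line passed by Pearson r, all of them positive. The highest of these were miR-106b-5p with miR-93-5p in 22Rv1 (r = 0.88, permutation adjusted p = 0.00012) and miR-93-5p with miR-25-3p in PC-3 (r = 0.61, permutation adjusted p = 0.00486). An adjusted p of 0.00012 is the smallest that the resamples can give over 12 relations. The other pairs of arms were not tested. Among them, on the TMM scale, miR-25-3p with miR-106b-3p had r = 0.69 in 22Rv1 and -0.03 in PC-3. miR-25-3p with miR-93-3p had r = -0.47 in 22Rv1 and 0.16 in PC-3.

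Among all other entries tested in the line, those most like each guide in pattern were ranked by Pearson r of log2(CPM + 1), as a description with no test. For miR-93-5p in PC-3 these were miR-20a-5p (r = 0.74) and miR-17-5p (r = 0.73), of its own seed family, and then miR-660-5p (r = 0.67). In 22Rv1 they were miR-20b-5p (r = 0.87), miR-20a-5p (r = 0.86) and miR-106a-5p (r = 0.78), all of the seed family. For miR-25-3p in 22Rv1 the first was miR-92a-3p (r = 0.89), followed by miR-486-5p (r = 0.88) and miR-148a-3p (r = 0.87), while in PC-3 they were miR-1260b (r = 0.67), miR-1260a (r = 0.66) and miR-374a-5p (r = 0.61). Both miR-1260a and miR-1260b are among the entries that overlap other RNA classes, kept as a sign of RNA quality. The list of blood or serum markers holds miR-486-5p. The part of RNA quality or serum in these likenesses was not tested. For miR-106b-5p they were miR-23a-3p (r = 0.68), miR-29b-3p (r = 0.66) and miR-24-2-5p (r = 0.65) in PC-3, and miR-148b-5p (r = 0.86), miR-183-3p (r = 0.83) and miR-15a-5p (r = 0.83) in 22Rv1. Its own cluster mate miR-93-5p stood at place 120 of 457 in PC-3 (r = 0.23) while in 22Rv1 it had r = 0.42, with 546 entries ranked.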

How the data were processed

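The authors deposited whole-number read counts per mature miRNA for 47 libraries and a second table of CPM (counts scaled to a common total) made by the authors. Per the submitters' processing notes, FastQC was used and the genome was hg19, while which aligner or counter was used is not given in the sources used here. Sequences were read from RefSeq tables on GRCh38.p14. Members and lists were chosen with earlier results of these data known.

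The counts were tested with edgeR 4.0.16 (R 4.3.3), by its robust quasi-likelihood test on TMM-scaled libraries with 1 mean per group. An entry entered the test when 2 or more libraries held it at 5 CPM or more, which left 463, 552 and 613 entries for PC-3, 22Rv1 and both lines together. TMM stands for the trimmed mean of M values. Contrasts were hypoxia minus its own control at each O2 level, their mean, their trend over the ordered levels, and PC-3 minus 22Rv1. A call needed a p below 0.05 after Benjamini-Hochberg adjustment over every tested entry, two-sided. Arm ratios, log2 of (5p count + 0.5) over (3p count + 0.5), were tested with limma 3.58.1 over all hairpins with both arms kept. Paralogue ratios were tested by exact permutation within levels, with 46656 arrangements in PC-3 and 23328 in 22Rv1 and a smallest p of 4.29e-05. Plus-minus values are SD between libraries and CPM in the text are TMM scaled. Common biological variation between libraries came to a coefficient of 15.3% (PC-3), 17.7% (22Rv1) and 16.9% (all).

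No group held libraries that agreed within sampling noise (lowest chi-square divided by its degrees of freedom 22.8), and none was merged. Same-numbered hypoxia and control libraries deviated together from their group means, with r of 0.301 to 0.671 over the PC-3 levels and 0.112 to 0.408 over the 5 levels of 22Rv1 with full pairs, so the numbers were taken to pair the libraries, and blocked values stand beside results whose call they change. Alternatives were other scalings (DESeq2 1.42.0 size factors, the authors' factors, library size alone), no filter, the DESeq2 Wald test, the replicate block, a pseudocount of 1, a stricter filter for arms and leaving out each library. Leaving out the libraries that stood apart was chosen after seeing the data. Scripts were tested on simulated counts. Named were all 6 arms, at most 4 of the paralogue list per line by smallest p beside the 3 paralogue arms, the seed relatives, the 3 entries most alike in pattern to each guide, and miR-210-3p. Tables were handled with pandas 2.3.3 and numpy 2.4.6, and plots drawn with matplotlib 3.10.9.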

Additional observations from a re-analysis of the deposited data

How the results depend on the processing

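The fall of miR-25-5p kept its call in every alternative run, with log2 effects from -0.46 to -0.41 in PC-3 and from -0.56 to -0.43 in 22Rv1, and from -0.45 to -0.40 and -0.55 to -0.46 when single libraries were left out. Of 5072 alternative values of 166 results, 4747 kept their side of the threshold or stayed near their main value. Of 2538 values of single levels and trends, 5.59% had the other sign with no call in either. The omission of the lone 22Rv1 control gave no mean effect. Arms below 100 CPM rest on few counts, which limits single levels.

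With same-numbered pairs as a block, calls rose to 109 in PC-3, 164 in 22Rv1 and 61 for the line difference, arm-ratio calls to 27 in 22Rv1 and 8 for the line difference, and member calls by level to 3 in PC-3 and 5 in 22Rv1. The block gave log2 effects of 0.11, -0.090 and -0.17 for miR-106b-3p, miR-93-5p and miR-93-3p in PC-3, of -0.19, -0.18, -0.31 and 0.027 for miR-106b-5p, miR-93-5p, miR-93-3p and miR-25-3p in 22Rv1, an arm-ratio change of -0.28 for hsa-mir-106b in 22Rv1, a line difference of -0.067 for hsa-mir-93 and a paralogue change of -0.089 for miR-25-3p in 22Rv1. Of these values, the paralogue change lost its call, miR-25-3p in 22Rv1 changed sign without a call, and the hsa-mir-93 line difference changed sign. The other values listed gained a call. Beside these and the single levels given with their results, the block changed no call of a cluster arm or hairpin. With library size alone, 46 entries were called in 22Rv1 and 7 for the line difference, miR-93-5p had -0.13 in PC-3 (edgeR adjusted p = 0.0325) and miR-106b-3p -0.018 in 22Rv1. With 22Rv1 libraries apart left out or DESeq2 size factors, 0 members were called by level, and miR-93-5p had -0.20 in 22Rv1 without those libraries, -0.21 with the authors' factors and -0.19 in DESeq2. With no filter, line differences were -0.032, -0.023 and -0.0042 for miR-106b-3p, miR-93-3p and miR-25-5p. In normoxia, PC-3 minus 22Rv1 was -0.17 and -0.12 for miR-106b-5p, and -0.16 and -0.12 for miR-93-3p, with the authors' factors and with no filter. Requiring 5 CPM of both arms in every library left 54 arm-ratio calls in normoxia and 5 for the line difference.

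Correlations with library size alone, of which 3 in each line passed, were, in PC-3, 0.51 for miR-106b-5p with miR-93-5p, 0.61 for miR-93-5p with miR-25-3p, 0.30 for the miR-106b arms and 0.46 for the miR-25 arms, and in 22Rv1 0.88 for miR-106b-5p with miR-93-5p, 0.12 with miR-25-3p, 0.69 for the miR-106b arms and 0.72 for the miR-93 arms. With deviations from the group means, they were -0.10 for miR-106b-5p with miR-25-3p, 0.25 for the miR-106b arms and -0.15 for the miR-93 arms in PC-3, and -0.069 for miR-106b-5p with miR-93-5p, -0.82 with miR-25-3p and -0.68, -0.31 and -0.0091 for the arms of miR-106b, miR-93 and miR-25 in 22Rv1. Without the libraries apart, r of miR-106b-5p with miR-25-3p was -0.51 in 22Rv1.

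Leaving out single libraries gave 0 to 1 member calls by level in each line, -0.037 to 0.0024 for miR-106b-5p in PC-3, and -0.20 to -0.17, -0.36 to -0.18 and -0.067 to 0.035 for miR-93-5p, miR-93-3p and miR-25-3p in 22Rv1. It gave 9 to 37 line-difference calls, with -0.052 to 0.12 for miR-106b-3p, -0.16 to 0.028 for miR-25-3p and -0.0012 to 0.14 for miR-25-5p. Arm-ratio calls ran from 5 to 21 in 22Rv1, with -0.012 to 0.18 for hsa-mir-93 and -0.57 to -0.41 for hsa-mir-25, the normoxia value of hsa-mir-25 from 0.24 to 0.29, and line-difference calls from 2 to 5, with -0.058 to 0.15 for hsa-mir-106b and -0.093 to 0.10 for hsa-mir-93. Paralogue changes in 22Rv1 ran from -0.010 to 0.10 for miR-106b-5p and from -0.10 to -0.075 for miR-25-3p. The cause of these changes was not tested.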
